A study of Homo sapiens with 12 samples.

Results

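The genes described here are 31 genes of the p53 pathway, most of them known to be switched on by p53, measured in 293T cells in which the splicing regulator RBFOX2 was silenced. They were chosen by name from what is known of the pathway, but with earlier results of these data known. The counts of members below are therefore a description and not a test of a list chosen blind. A probe set was assigned to a gene where the platform annotation gave it that gene as its single symbol, with older symbols accepted (TIGAR is listed as C12orf5). All 31 were measured, among 16648 genes tested in all. Their 988 probe sets lie on single exons or on exon-exon junctions, and 718 of them (474 exon, 244 junction) passed the filter on low signal, so that each gene kept at least 3.

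293T cells come from human embryonic kidney and make the large T antigen of SV40. All 12 arrays used these cells, and all cells were infected with a lentivirus carrying a short hairpin RNA (shRNA) and, from 48 hours after infection, selected for 10 days with puromycin at 1 ug/mL before total RNA was extracted. The control group carried the non-target hairpin SHC016, and the other groups carried shRNA1, shRNA2 or shRNA3 against RBFOX2, with 3 arrays in each of the 4 groups. Every group therefore carries large T, a virus insertion and puromycin selection, and no array is of uninfected cells. The labels do not tell whether the replicates are separate cultures, and p-values therefore describe a spread that may be purely technical.

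The tumour suppressor p53 is a transcription factor that is stabilised by DNA damage and other stress. It binds a DNA element made of a pair of similar 10-letter arms and raises genes that stop the cell cycle, repair DNA, adjust metabolism or start cell death, and also genes such as MDM2 that lower p53 again. Large T binds p53 and is known to hold back much of its activity as a transcription factor, and it also binds the RB family, so basal levels of these genes in 293T cells need not depend on p53 alone. Several members, such as GADD45A and TNFRSF10B, are also induced by ATF4 or CHOP, the factors of the integrated stress response. RBFOX2 is an RNA-binding protein that steers the choice of alternative exons.

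Most members are known to be switched on by p53, so their promoters were searched for the element that it binds. RefSeq sequences (build GRCh38.p14) were used that run from 250 bases before to 50 bases after an annotated gene start. The search used the p53 consensus element on both strands, with no spacer between the arms. The C and the G in the middle of each arm were required, and up to 3 of the other letters were allowed to differ, a limit chosen after the matches were seen. Of all 35116 windows, 392 (1.12%) held a match. Among the members, 26 had at least 1 window (38 windows in all) and 5 had none in the table (TNFRSF10B, GADD45A, TP53INP1, PHLDA3 and RRM2B). A match was found in 10 of the 38 windows, in 9 members. The sites below are only those of members that passed the test described further on with at least 1 hairpin. Their display therefore does not show that a site goes with a change. The 4 central letters of each arm are in capitals.
FAS: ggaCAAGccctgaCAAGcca
MDM2: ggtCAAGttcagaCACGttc
AEN: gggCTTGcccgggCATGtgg
DDB2: aagCTGGtttgaaCAAGccc
SESN1: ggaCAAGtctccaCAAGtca
RPS27L: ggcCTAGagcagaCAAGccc
The DDB2 site (chr11:47214969-47214988, plus strand) differed from the consensus at 1 letter. The sites of FAS (chr10:88991309-88991328, plus), MDM2 (chr12:68808923-68808942, plus) and AEN (chr15:88621306-88621325, plus) differed at 2 letters, and those of SESN1 (chr6:109009018-109009037, minus) and RPS27L (chr15:63157527-63157546, minus) at 3. FDXR, PMAIP1 and GDF15 held the other 3 matching sites, each with 3 differing letters, and these 3 members passed the test with no hairpin. A match is a description of these letters and does not show that p53 binds there in these cells.

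AEN, an exonuclease of the apoptotic response, was lower with every hairpin and has its site close to its start, at position -34. The 250 bases before its start (chr15:88621090-88621339, plus strand, GRCh38.p14) are shown with the site in capitals.
AEN promoter: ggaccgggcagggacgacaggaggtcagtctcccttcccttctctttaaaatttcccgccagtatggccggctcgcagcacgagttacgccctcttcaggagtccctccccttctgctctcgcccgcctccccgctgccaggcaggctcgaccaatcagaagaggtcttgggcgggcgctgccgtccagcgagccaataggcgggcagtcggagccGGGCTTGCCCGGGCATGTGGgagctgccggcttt

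Levels are given as gene values, the mean log2 signal of a gene's kept probe sets on an array, and a change is the difference of these between groups. A gene is said to have risen or fallen only where limma's test gave a Benjamini-Hochberg adjusted p below 0.05 over all genes of the contrast. Each hairpin was compared with the same 3 control arrays, so the contrasts are not independent of each other. In RNA from a whole culture, fewer cells of a kind and less RNA per cell cannot be told apart. RBFOX2, the silenced gene, was at 48.7% of control with shRNA1, at 72.6% with shRNA2 and at 59.7% with shRNA3. Array medians lay between 7.24 and 7.27 and the median change of all genes between -0.01 and 0.02, on values that RMA had scaled to a common distribution.

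More members fell than rose with every hairpin, and the count was highest with shRNA2, the hairpin that left the most RBFOX2. With shRNA2, 18 members fell and 1 rose, where 8.63% of all genes fell and 5.92% rose. With shRNA3, 13 fell and 3 rose, against 14.8% and 12% of all genes. With shRNA1, 6 fell and 2 rose, against 4.07% and 5.99%. The median change of the 31 members was -0.05 with shRNA1, -0.18 with shRNA2 and -0.06 with shRNA3, where the median over all genes was -0.01, 0.00 and 0.02. By sign alone, 21, 26 and 21 members were below control, against 9597, 8205 and 7317 of the 16648 genes. On the mean of the 3 hairpins, 18 fell and 2 rose, against 12.8% and 10.3% of all genes.

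The mean over the members was also read on single arrays. Relative to the control mean, it stood at -0.02, 0.01 and 0.01 in control and, under shRNA1, at -0.05, -0.04 and -0.03. It was -0.18, -0.16 and -0.19 with shRNA2, and -0.07, -0.03 and -0.07 with shRNA3. All 3 shRNA2 arrays were thus below every other array, while the shRNA1 and shRNA3 arrays overlapped each other. All 9 hairpin arrays were below all 3 controls, but control replicate 1 (-0.0179) and shRNA1 replicate 3 (-0.0268) lay close. Members below the control mean numbered 22, 9 and 15 in control and 21, 20 and 21 with shRNA1. They numbered 26, 24 and 28 with shRNA2 and 22, 17 and 23 with shRNA3. By this count shRNA1 and shRNA3 overlapped control. The mean over all genes ran from -0.0231 to 0.0156. Of single probe sets, 73.5% of the 718 kept ones were lower than control with shRNA2, 61.1% with shRNA1 and 58.1% with shRNA3, where the shares over all kept probe sets of tested genes were 50.4%, 50.1% and 48.0%.

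**Figure D1:**
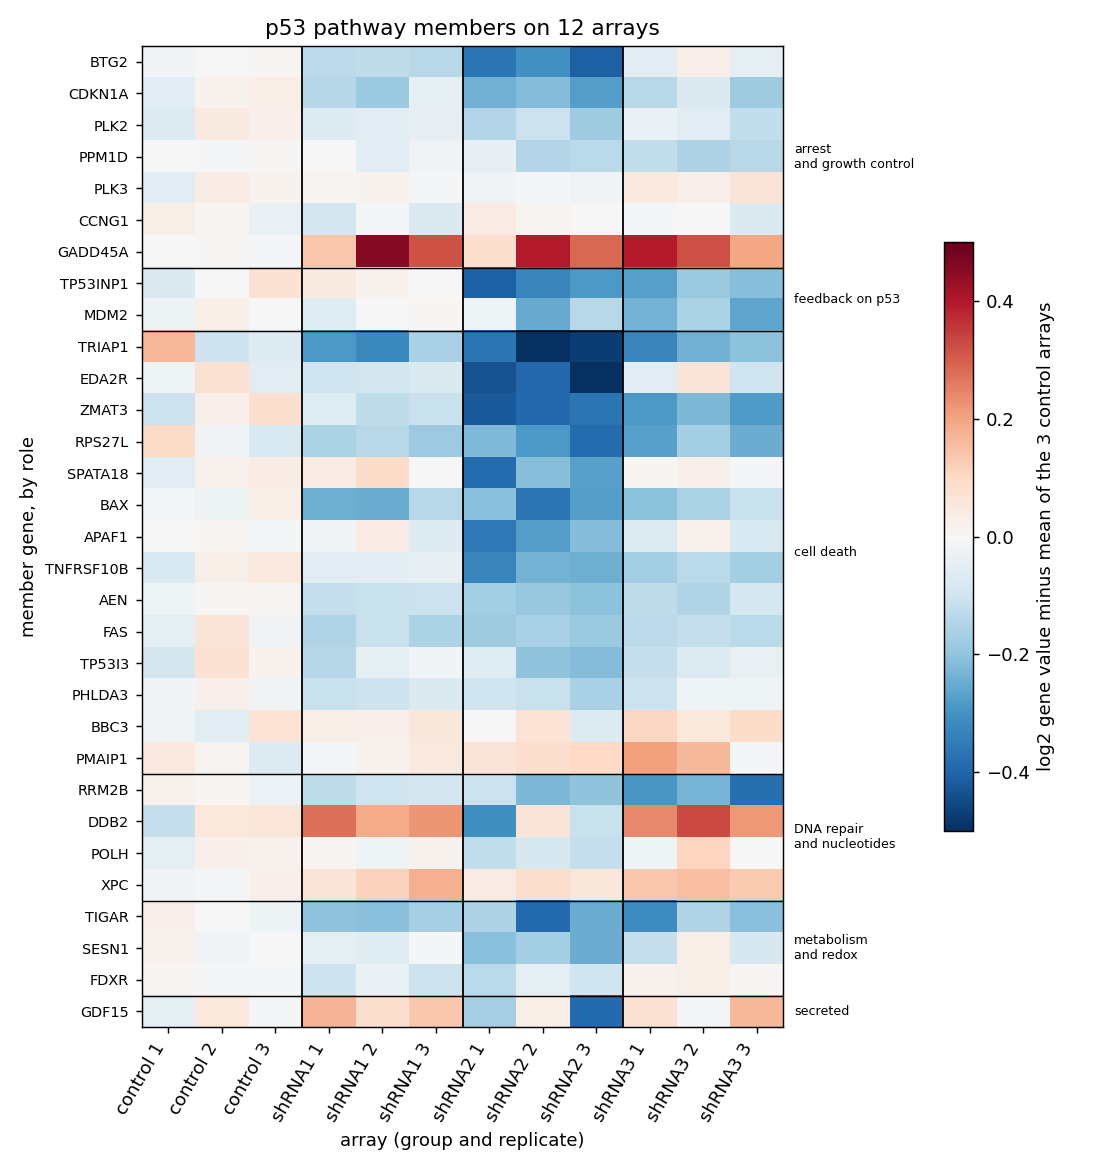
Gene values of the 31 members (rows, grouped by role) on the 12 arrays (columns), as the log2 difference from the mean of the 3 control arrays; blue is lower and red is higher. The 3 shRNA2 columns hold the most blue, and GADD45A, XPC and, with shRNA1 and shRNA3, DDB2 are red.

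**Figure D2:**
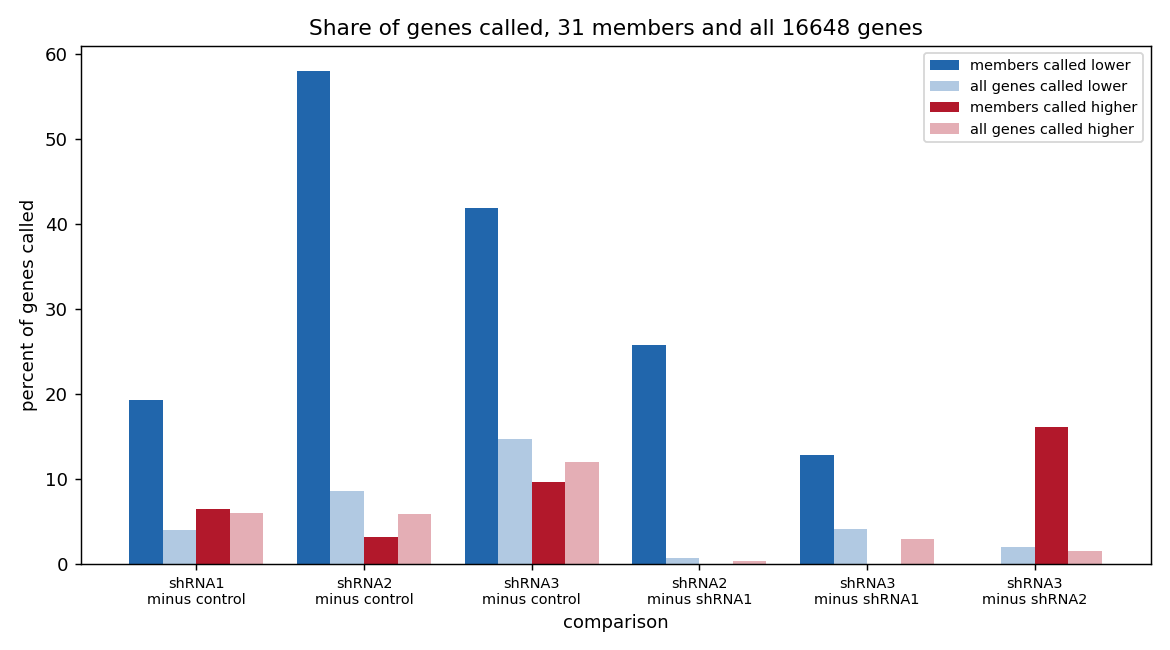
Percent of the 31 members and of all 16648 genes that were called lower or higher (adjusted p below 0.05) in each comparison. With shRNA2, 18 members were called lower where 8.63% of all genes were.

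The counts with shRNA1 rest on single arrays. The 8 calls became 3, 2 and 1 without control replicate 1, 2 or 3 and 2, 0 and 3 without shRNA1 replicate 1, 2 or 3, and no single call was kept in every such fit. Calls over all genes fell too in these fits, from 10.1% to 3.9%, 6.69% and 4.41% without a control array and to 4.08%, 2.96% and 7.29% without an shRNA1 array. With shRNA2, 15 of the 19 calls were kept whichever array was left out, and with shRNA3 10 of the 16 were, the count falling to 10 without shRNA3 replicate 1, where all genes called fell from 26.8% to 13.1%. With the median in place of the mean of a gene's probe sets, the counts were 1, 12 and 7 for shRNA1, shRNA2 and shRNA3. The shares of all genes called were then 3.86%, 8.22% and 13.4%, down from 10.1%, 14.5% and 26.8%.

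The members were also counted by role, with a gene counted under each role it has. Of 14 cell death genes, 4, 11 and 7 fell with shRNA1, shRNA2 and shRNA3 (medians -0.09, -0.28 and -0.10), and 0 rose by limma's adjusted p (0, 0 and 1 at an unadjusted p under 0.05). Of 7 genes of arrest and growth control, 1, 3 and 2 fell and 1 (GADD45A) rose each time. Of 4 feedback genes, 0, 1 and 3 fell. Of 4 genes of DNA repair and nucleotide supply, 0, 1 and 1 fell while 1, 0 and 2 rose, and of 4 genes of metabolism and redox, 1, 2 and 1 fell. Beside these counts stand the 4.07%, 8.63% and 14.8% of all genes that fell with the 3 hairpins, and the 5.99%, 5.92% and 12% that rose. The falls of 1 of 4 metabolic genes, 1 of 4 repair genes and 2 of 7 arrest genes with shRNA3 are within 1 gene of the share that fell. So are those of 1 of 7 arrest and 1 of 4 metabolic genes with shRNA1. The same holds for 1 of 4 feedback and 1 of 4 repair genes with shRNA2.

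**Figure D3:**
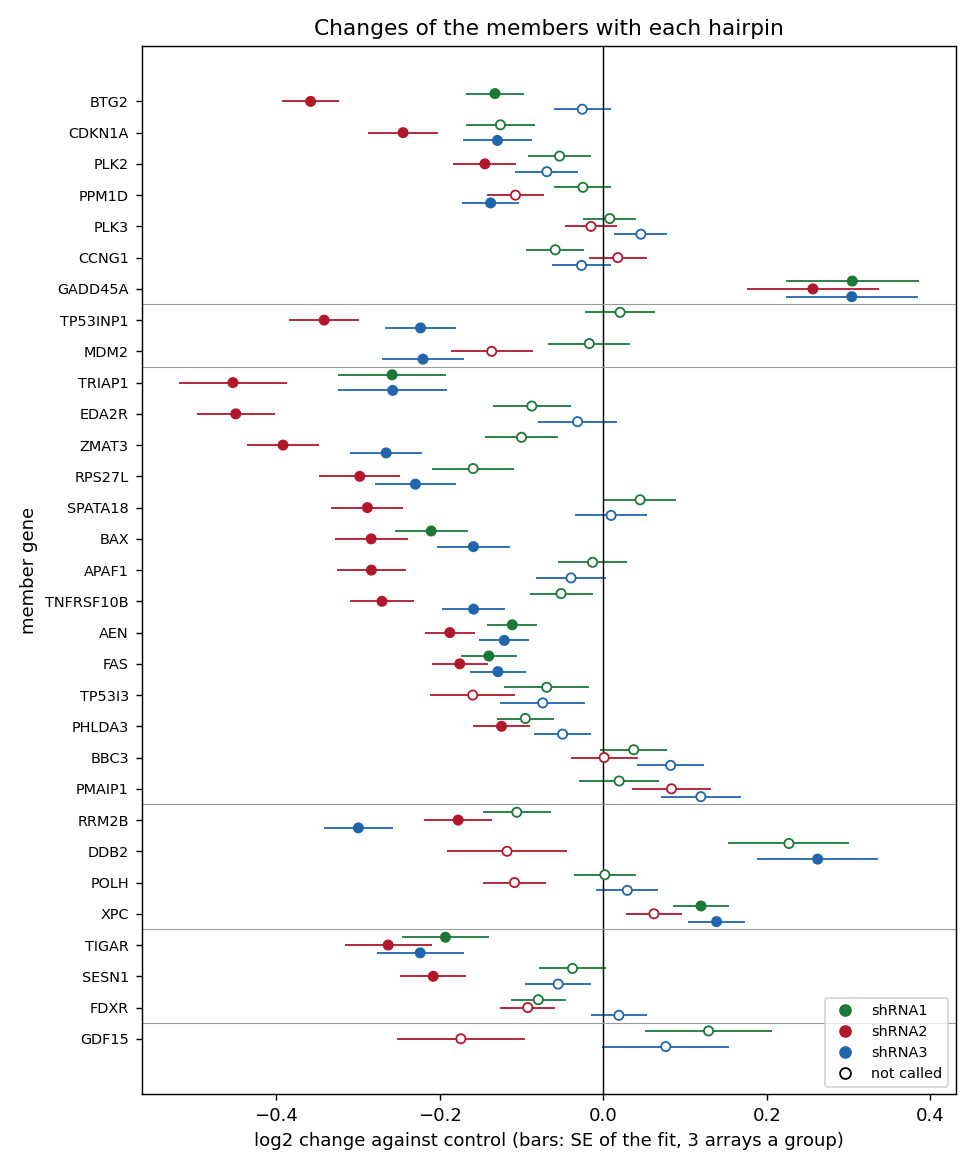
Log2 change of each member against control with shRNA1 (green), shRNA2 (red) and shRNA3 (blue); bars are the SE of the fit with 3 arrays a group, and open points did not pass the test. EDA2R, APAF1 and SPATA18 stand apart from zero with shRNA2, at -0.45, -0.28 and -0.29, and lie between -0.09 and 0.05 with the other hairpins.

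Among the arrest genes, CDKN1A encodes p21, the inhibitor of cyclin-dependent kinases through which p53 halts the cell cycle. Its gene value was 8.78, 8.85 and 8.87 in control, 8.69, 8.65 and 8.79 under shRNA1, 8.60, 8.62 and 8.56 under shRNA2, and 8.70, 8.76 and 8.66 under shRNA3. The shRNA2 and shRNA3 arrays were all below the controls, while the shRNA1 arrays overlapped them at 1 array. CDKN1A fell by 0.24 with shRNA2 (SE 0.04, n = 3 arrays per group, adjusted p = 0.00295) and by 0.13 with shRNA3 (adjusted p = 0.0364), and its change with shRNA1 was -0.13 (adjusted p = 0.0751). The shRNA3 call was lost without control replicate 2 or 3 or shRNA3 replicate 1 or 3. Among its 20 kept probe sets, 14 were lower than control with shRNA2 and 11 with shRNA3.

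BTG2, an antiproliferative cofactor of mRNA deadenylation, had the smallest adjusted p of all members. It stood at 9.01, 9.02 and 9.03 in control, 8.89, 8.89 and 8.88 under shRNA1, 8.66, 8.72 and 8.61 under shRNA2, and 8.97, 9.05 and 8.97 under shRNA3. The groups formed 3 levels, with shRNA2 lowest, shRNA1 between, and shRNA3 overlapping control. BTG2 fell by 0.36 with shRNA2 (SE 0.04, adjusted p = 8.22e-05), to 78.0% of control, and by 0.13 with shRNA1 (adjusted p = 0.0309), a call lost without any one of the control or shRNA1 arrays; with shRNA3 the change was -0.03 (adjusted p = 0.595). PLK2, a polo-like kinase of the damage response, fell with shRNA2 (-0.14, adjusted p = 0.0228), a call lost without control replicate 2 or 3 or shRNA2 replicate 3. Only 20 of its 66 probe sets were kept, and 12 of these were lower with shRNA2. With the filter at the 60th percentile the sign of this change reversed. PLK3 and CCNG1 passed the test with no hairpin, with changes between -0.06 and 0.05.

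GADD45A, a stress-induced inhibitor of growth, went the other way. Its values, given in full after they were seen, were 8.15, 8.16 and 8.14 in control, 8.29, 8.61 and 8.47 under shRNA1, 8.23, 8.55 and 8.44 under shRNA2, and 8.55, 8.47 and 8.34 under shRNA3. All 9 hairpin arrays were above all controls, with a wider spread among them than among the controls. It rose by 0.30, 0.26 and 0.30 (SE 0.08, adjusted p = 0.0309, 0.0478 and 0.0151), the 1 member called higher with all 3 hairpins, where 2.5% of all genes were. That result depends on how the gene value is made: with the median of its 13 probe sets the changes were 0.06, -0.02 and 0.12 and none was called. The median of the changes of its single probe sets was 0.29, 0.25 and 0.39, with 3 of the 13 lower than control each time. Without its 1 junction of unequal change (below) the rises were 0.24, 0.20 and 0.27 and the shRNA1 and shRNA2 calls were lost, and single arrays also ended calls. Leaving out any control array or shRNA1 replicate 2 or 3 ended that of shRNA1. Any control array, shRNA1 replicate 3, shRNA2 replicate 2 or 3 or shRNA3 replicate 2 did so for shRNA2, and shRNA3 replicate 1 for shRNA3.

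Of the genes that feed back on p53, MDM2, the ubiquitin ligase that targets p53 for destruction, had values of 10.11, 10.17 and 10.14 in control and 10.08, 10.14 and 10.15 with shRNA1. It stood at 10.12, 9.89 and 10.00 with shRNA2 and at 9.90, 9.98 and 9.88 with shRNA3. The shRNA3 arrays were all below the controls and the other hairpins overlapped them. MDM2 fell by 0.22 with shRNA3 (SE 0.05, adjusted p = 0.00677), and its changes with shRNA1 and shRNA2 were -0.02 (adjusted p = 0.877) and -0.14 (adjusted p = 0.0825). With shRNA3, 43 of its 45 kept probe sets were lower than control.

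TP53INP1, a nuclear and autophagy protein that strengthens p53's response, was at 8.11, 8.18 and 8.25 in control and 8.22, 8.20 and 8.18 with shRNA1. It was at 7.77, 7.85 and 7.89 with shRNA2 and 7.91, 7.99 and 7.97 with shRNA3. The shRNA2 arrays were lowest, then the shRNA3 arrays, and neither group reached the controls or shRNA1. The falls were 0.34 with shRNA2 (SE 0.04, adjusted p = 0.000408) and 0.22 with shRNA3 (adjusted p = 0.00285), and the change with shRNA1 was 0.02 (adjusted p = 0.817). PPM1D, the phosphatase that dephosphorylates p53 and its kinases, fell with shRNA3 (-0.14, adjusted p = 0.0116), with -0.11 for shRNA2 (adjusted p = 0.0529).

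**Figure D4:**
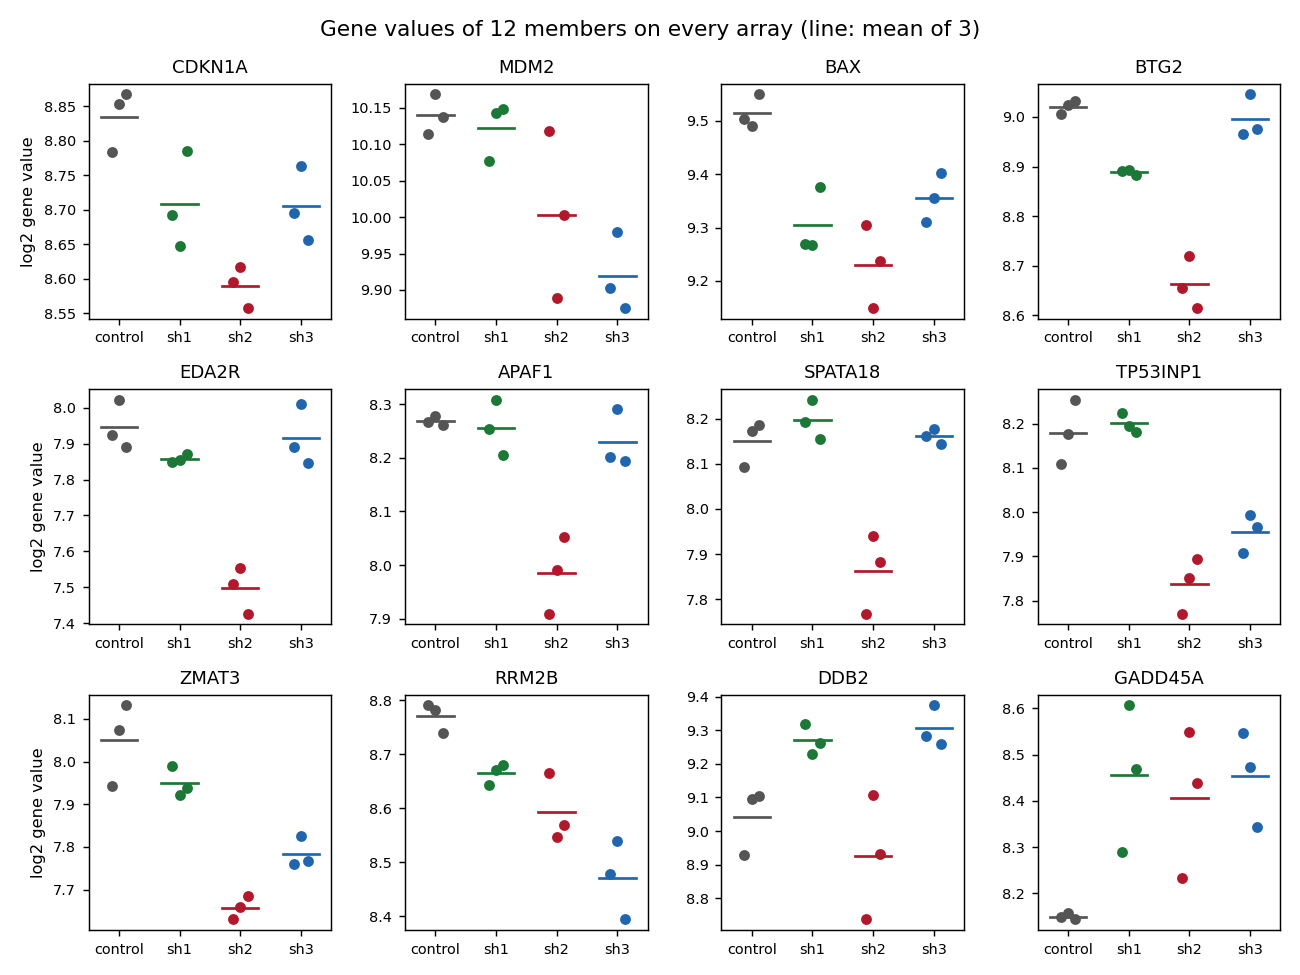
Gene values (log2) of 12 members on every array, by group, with sh1, sh2 and sh3 for shRNA1, shRNA2 and shRNA3; each point is 1 array, the line is the mean of 3, and each panel has its own axis, which does not start at 0. BTG2, EDA2R, APAF1 and SPATA18 are lowest with shRNA2, RRM2B and MDM2 have their lowest means with shRNA3, and GADD45A is above control in all.

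The cell death genes can be followed from the cell surface inwards. FAS, the receptor for the death ligand FASL, is given after its values were seen: 8.07, 8.18 and 8.10 in control, 7.97, 8.0 and 7.96 under shRNA1, 7.94, 7.95 and 7.93 under shRNA2, and 7.98, 8.0 and 7.98 under shRNA3. No hairpin array reached the controls. FAS fell by 0.14, 0.18 and 0.13 (SE 0.03, adjusted p = 0.0214, 0.00557 and 0.0149). Probe sets lower than control numbered 19, 18 and 15 of its 24 kept ones. The shRNA2 call held whichever array was left out, while the shRNA1 call was lost without control replicate 2 or 3 or any shRNA1 array and the shRNA3 call without control replicate 2 or shRNA3 replicate 1.

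TNFRSF10B, the TRAIL receptor DR5, stood at 8.99, 9.09 and 9.11 in control, 9.01, 9.01 and 9.02 under shRNA1, 8.73, 8.83 and 8.82 under shRNA2, and 8.89, 8.93 and 8.90 under shRNA3. All shRNA2 and shRNA3 arrays were below the controls, and shRNA1 overlapped them. The falls were 0.27 with shRNA2 (SE 0.04, adjusted p = 0.000935) and 0.16 with shRNA3 (adjusted p = 0.00946), and the change with shRNA1 was -0.05 (adjusted p = 0.447). All 28 of its kept probe sets were lower with shRNA2.

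EDA2R, a receptor of the TNF receptor family for ectodysplasin A2, had values of 7.92, 8.02 and 7.89 in control and 7.85, 7.86 and 7.87 with shRNA1. They were 7.51, 7.55 and 7.43 with shRNA2 and 7.89, 8.01 and 7.84 with shRNA3. The shRNA2 arrays were far below all others, and the shRNA3 arrays overlapped the controls. The shRNA1 arrays were just below all controls, with 15 of 18 probe sets lower. EDA2R fell by 0.45 with shRNA2 (SE 0.05, adjusted p = 0.000143), to 73.2% of control, with all 18 kept probe sets lower. Its changes with shRNA1 and shRNA3 were -0.09 (adjusted p = 0.275) and -0.03 (adjusted p = 0.634).

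BAX, which opens the outer mitochondrial membrane in apoptosis, had control values of 9.50, 9.49 and 9.55. It was at 9.27, 9.27 and 9.38 under shRNA1, 9.31, 9.15 and 9.24 under shRNA2, and 9.31, 9.35 and 9.40 under shRNA3. Every hairpin array was below every control array. BAX fell by 0.21, 0.28 and 0.16 (SE 0.04, adjusted p = 0.0111, 0.00185 and 0.0196), and only the shRNA2 call survived each array left out; control replicate 3 and shRNA1 replicate 1 or 2 were needed for shRNA1, and control replicate 3 and shRNA3 replicate 1 for shRNA3.

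APAF1, the scaffold of the caspase-activating apoptosome, stood at 8.27, 8.28 and 8.26 in control, 8.25, 8.31 and 8.20 under shRNA1, 7.91, 7.99 and 8.05 under shRNA2, and 8.20, 8.29 and 8.19 under shRNA3. The shRNA2 group alone lay apart. APAF1 fell by 0.28 with shRNA2 (SE 0.04, adjusted p = 0.00127), where 51 of its 53 kept probe sets were lower, and changed by -0.01 (adjusted p = 0.89) and -0.04 (adjusted p = 0.49) with the others.

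SPATA18, a regulator of mitochondrial quality, was at 8.09, 8.17 and 8.19 in control, 8.19, 8.24 and 8.16 under shRNA1, 7.77, 7.94 and 7.88 under shRNA2, and 8.16, 8.18 and 8.14 under shRNA3. Here too the shRNA2 arrays were below all others. SPATA18 fell by 0.29 with shRNA2 (SE 0.04, adjusted p = 0.0015), and its changes were 0.05 (adjusted p = 0.578) with shRNA1 and 0.01 (adjusted p = 0.882) with shRNA3.

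ZMAT3, a zinc finger protein that binds RNA, had values of 7.94, 8.07 and 8.13 in control, 7.99, 7.92 and 7.94 under shRNA1, 7.63, 7.66 and 7.68 under shRNA2, and 7.76, 7.83 and 7.77 under shRNA3. The shRNA2 arrays were lowest and the shRNA3 arrays next, both clear of control, and shRNA1 overlapped control. ZMAT3 fell by 0.39 with shRNA2 (SE 0.04, adjusted p = 0.0002) and 0.27 with shRNA3 (adjusted p = 0.00122), with -0.10 for shRNA1 (adjusted p = 0.171). AEN, whose promoter is shown above, stood at 9.11, 9.13 and 9.14 in control, 9.01, 9.02 and 9.02 under shRNA1, 8.96, 8.94 and 8.92 under shRNA2, and 9.0, 8.98 and 9.04 under shRNA3. Its groups were narrow, with all hairpin arrays below the controls. Counted singly, 16, 16 and 11 of its 18 kept probe sets were lower with shRNA1, shRNA2 and shRNA3. AEN fell by 0.11, 0.19 and 0.12 (SE 0.03, adjusted p = 0.0355, 0.00217 and 0.0116), and its shRNA1 call was lost without any one of the control or shRNA1 arrays or shRNA3 replicate 1.

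TRIAP1, a small protein known to restrain apoptosis rather than to drive it, had the largest falls of any member with shRNA1 and shRNA2, measured on only 6 probe sets. It stood at 9.23, 8.96 and 9.0 in control, 8.77, 8.74 and 8.90 under shRNA1, 8.70, 8.54 and 8.58 under shRNA2, and 8.73, 8.82 and 8.86 under shRNA3. Control replicate 1 was high, and every hairpin array was below all controls. TRIAP1 fell by 0.26, 0.45 and 0.26 (SE 0.07, adjusted p = 0.0269, 0.00117 and 0.0129). Without control replicate 1 the falls were smaller, and the shRNA1 and shRNA3 calls were lost, as they were without shRNA1 replicate 1 or 2 and shRNA3 replicate 1.

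RPS27L, a ribosomal protein paralog that takes part in MDM2 and p53 turnover, had values of 9.51, 9.39 and 9.33 in control and 9.25, 9.27 and 9.23 with shRNA1. It was at 9.19, 9.12 and 9.02 with shRNA2 and 9.14, 9.24 and 9.16 with shRNA3. All hairpin arrays were below all controls. Lower probe sets numbered 9, 8 and 7 of its 11 kept ones with shRNA1, shRNA2 and shRNA3. RPS27L fell by 0.30 with shRNA2 (SE 0.05, adjusted p = 0.00242) and 0.23 with shRNA3 (adjusted p = 0.00526), with -0.16 for shRNA1 (adjusted p = 0.0575). It resembles the ribosomal protein gene RPS27 in sequence, and how far probes tell the genes apart was not tested.

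PHLDA3, a PH domain protein that opposes AKT, fell with shRNA2 (-0.12, adjusted p = 0.0284), with 9 of its 16 kept probe sets lower. That call was lost without any control array or without shRNA2 replicate 2 or 3. The classical p53-induced BH3-only genes passed with no hairpin: BBC3 (PUMA) changed by 0.04, 0.00 and 0.08 and PMAIP1 (NOXA) by 0.02, 0.08 and 0.12. TP53I3, a quinone oxidoreductase, had changes of -0.07, -0.16 and -0.07 and passed with none.

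**Figure D5:**
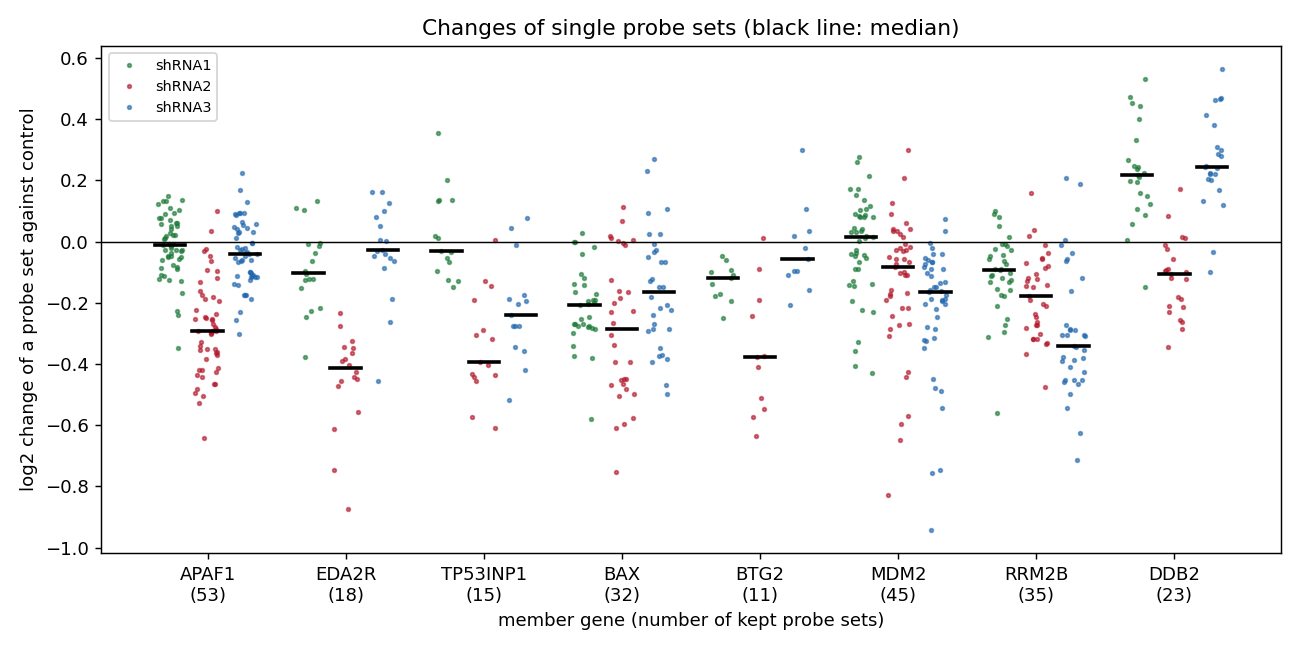
Log2 change of single kept probe sets against control for 8 members with shRNA1 (green), shRNA2 (red) and shRNA3 (blue); the black line is the median and the number of probe sets is in brackets. For APAF1, 51 of 53 probe sets lie below zero with shRNA2, and for MDM2 43 of 45 do with shRNA3.

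Repair and nucleotide genes did not move as a group. RRM2B, the p53-inducible subunit of ribonucleotide reductase, stood at 8.79, 8.78 and 8.74 in control, 8.64, 8.67 and 8.68 under shRNA1, 8.66, 8.55 and 8.57 under shRNA2, and 8.48, 8.54 and 8.39 under shRNA3. All hairpin arrays were below control, the shRNA3 arrays furthest. RRM2B fell by 0.30 with shRNA3 (SE 0.04, adjusted p = 0.000421) and 0.18 with shRNA2 (adjusted p = 0.0132), the latter lost without control replicate 1 or shRNA2 replicate 2, and changed by -0.11 with shRNA1 (adjusted p = 0.125).

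DDB2 and XPC recognise DNA lesions in nucleotide excision repair, and their values are given after they were seen. DDB2 stood at 8.93, 9.10 and 9.10 in control, 9.32, 9.23 and 9.26 under shRNA1, 8.74, 9.11 and 8.93 under shRNA2, and 9.28, 9.37 and 9.26 under shRNA3. The shRNA1 and shRNA3 arrays were above the controls, and the shRNA2 arrays overlapped them. DDB2 rose by 0.26 with shRNA3 (SE 0.07, adjusted p = 0.0196), a call lost without control replicate 1 or shRNA3 replicate 1 or 2. Its changes were 0.23 with shRNA1 (adjusted p = 0.0669) and -0.12 with shRNA2 (adjusted p = 0.311).

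XPC was at 8.67, 8.68 and 8.71 in control, 8.75, 8.80 and 8.87 under shRNA1, 8.73, 8.78 and 8.75 under shRNA2, and 8.82, 8.84 and 8.82 under shRNA3. All hairpin arrays were above the controls. XPC rose by 0.14 with shRNA3 (SE 0.03, adjusted p = 0.0106), which held in every fit with an array left out, and by 0.12 with shRNA1 (adjusted p = 0.0429), which was lost without any one of the control or shRNA3 arrays or shRNA1 replicate 2 or 3, and its change with shRNA2 was 0.06 (adjusted p = 0.247). POLH, a translesion polymerase, changed by 0.00, -0.11 and 0.03 and passed with none.

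Among the metabolic genes, TIGAR, a bisphosphatase that lowers glycolytic flux, is given after its values were seen. It stood at 9.07, 9.05 and 9.02 in control, 8.84, 8.83 and 8.88 under shRNA1, 8.89, 8.66 and 8.79 under shRNA2, and 8.73, 8.89 and 8.83 under shRNA3. No hairpin array reached the controls. TIGAR fell by 0.19, 0.26 and 0.22 (SE 0.05, adjusted p = 0.0363, 0.00683 and 0.00854), the shRNA1 call being lost without any one of the control or shRNA1 arrays.

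SESN1, a stress protein that restrains mTORC1 signalling, had values of 8.31, 8.27 and 8.29 in control, 8.24, 8.23 and 8.29 under shRNA1, 8.08, 8.12 and 8.04 under shRNA2, and 8.17, 8.32 and 8.21 under shRNA3. The shRNA2 arrays were below all others. SESN1 fell by 0.21 with shRNA2 (SE 0.04, adjusted p = 0.00549), with -0.04 for shRNA1 (adjusted p = 0.619) and -0.06 for shRNA3 (adjusted p = 0.31). FDXR, the ferredoxin reductase of mitochondria, changed by -0.08, -0.09 and 0.02 and passed with none, as did GDF15, a secreted stress cytokine measured with only 3 probe sets, with changes of 0.13, -0.17 and 0.08.

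Seen by hairpin, 5 members (BAX, FAS, AEN, TIGAR and TRIAP1) fell with all 3, where 2.17% of all genes did. With GADD45A this makes 6 members called in 1 direction throughout, a count that became 3, 2 and 1 without control replicate 1, 2 or 3, 1, 0 and 3 without shRNA1 replicate 1, 2 or 3, and 1 without shRNA3 replicate 1. Over all genes the share called in 1 direction throughout was 4.68%, and in these fits it was 1.45%, 3.68%, 1.9%, 2.24%, 1.7%, 3.66% and 3.05%. A further 6 fell with shRNA2 and shRNA3 (CDKN1A, ZMAT3, RRM2B, TP53INP1, TNFRSF10B and RPS27L), and 6 passed with shRNA2 alone (SESN1, PLK2, PHLDA3, SPATA18, EDA2R and APAF1). MDM2, PPM1D and DDB2 passed with shRNA3 alone, BTG2 with shRNA1 and shRNA2, and XPC with shRNA1 and shRNA3. No hairpin changed the other 8 past the test, and no member was called in opposite directions.

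Passing with 1 hairpin and not with another does not show a difference, so the hairpins were also compared directly. Between shRNA2 and shRNA1, 8 members were lower with shRNA2 and 0 higher, where 0.745% and 0.444% of all genes were. EDA2R and TP53INP1 differed most, both by -0.36 (adjusted p = 0.00122 and 0.000673), then DDB2 (-0.34, adjusted p = 0.0365), SPATA18 (-0.33, adjusted p = 0.00121), ZMAT3 (-0.29, adjusted p = 0.00363), APAF1 (-0.27, adjusted p = 0.00443), BTG2 (-0.23, adjusted p = 0.00443) and TNFRSF10B (-0.22, adjusted p = 0.0117). The 8 include receptors, the apoptosome scaffold and a growth inhibitor. DDB2 is among them although it did not pass the test against control with either hairpin. At an unadjusted p under 0.05, 18 members were lower and 1 was higher.

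Between shRNA3 and shRNA2, 5 members were higher with shRNA3 and 0 lower, where 1.54% and 2.02% of all genes were. They were EDA2R (0.42, adjusted p = 0.000224), DDB2 (0.38, adjusted p = 0.0121), BTG2 (0.33, adjusted p = 0.000132), SPATA18 (0.30, adjusted p = 0.00177) and APAF1 (0.24, adjusted p = 0.00543). All 5 were thus lower with shRNA2 than with both other hairpins by the direct test. In EDA2R, BTG2, SPATA18 and APAF1 no shRNA2 array reached any other array of the study, while the shRNA2 arrays of DDB2 overlapped the controls. The 5 genes were picked on these same arrays, so the lack of overlap between hairpins adds no support. At an unadjusted p under 0.05, 18 members were higher and 1 was lower. Both comparisons use the same shRNA2 arrays, and without shRNA2 replicate 2 the count of 5 became 9, where all genes called rose from 3.56% to 8.92%.

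Between shRNA3 and shRNA1, 4 members were lower with shRNA3 and 0 higher, against 4.15% and 2.95% of all genes. TP53INP1 differed by -0.24 (adjusted p = 0.00563), MDM2 by -0.20 (adjusted p = 0.0317), RRM2B by -0.19 (adjusted p = 0.0177) and ZMAT3 by -0.17 (adjusted p = 0.0399). At an unadjusted p under 0.05, 6 were lower and 2 higher. The count of 4 became 2, 1 and 1 without shRNA1 replicate 1, 2 or 3, 1 without shRNA3 replicate 1 or 3, and 2 with the replicate number as a block. All genes called went from 7.1% to between 1.75% and 2.26% without those arrays and to 5.29% with the block.

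RBFOX2 is a splicing factor, so single exons and junctions of the members were compared with the rest of their gene. The splicing index of a probe set sets its log2 value against the mean of the gene's other kept probe sets on the same array. A call needed a difference of 1.5-fold or more and an adjusted p under 0.05. Of 715 member probe sets, 1, 4 and 0 were called with shRNA1, shRNA2 and shRNA3, where 0.129%, 0.22% and 0.195% of all probe sets were. At an unadjusted p under 0.05 with the same fold there were 3, 5 and 4. All 4 probe sets were junctions. In GADD45A junction JUC01006248.hg.1 the index rose by 0.82 with shRNA1 (SE 0.14, adjusted p = 0.0349) and 0.79 with shRNA2 (adjusted p = 0.0312), with 0.46 for shRNA3 (adjusted p = 0.143).

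The other 3 junctions passed with shRNA2. The index of MDM2 junction JUC12004243.hg.1 fell by 0.71 (adjusted p = 0.0159), that of PHLDA3 junction JUC01029588.hg.1 fell by 0.60 (adjusted p = 0.0381), and that of FAS junction JUC10017254.hg.1 rose by 0.67 (adjusted p = 0.0314). These calls are few and depend on the fit: with the low probe sets included, or with only the control and shRNA2 arrays in the fit, 0 member probe sets were called with shRNA2, and without control replicate 2 or 3 the count was 1, and without shRNA2 replicate 1 it was 2. For shRNA1 the count of 1 became 0 without any control or shRNA1 array or without shRNA3 replicate 2, and 2 without shRNA3 replicate 3; for shRNA3 it became 1 without shRNA2 replicate 2 or shRNA3 replicate 3, and 2 without shRNA3 replicate 2. Without the probe sets that had a called index the gene-level counts were 7, 17 and 16 in place of 8, 19 and 16.

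Genes around the members were read from lists that hold no member. Of 37 other known p53 targets that were measured (44 listed), 4, 7 and 5 fell and 1, 1 and 2 rose with shRNA1, shRNA2 and shRNA3, with medians of -0.03, -0.06 and 0.01. Among all genes 4.07%, 8.63% and 14.8% fell and 5.99%, 5.92% and 12% rose. The shRNA3 counts are no higher than these shares. Between shRNA2 and shRNA1, 0 of the 37 differed by limma's adjusted p, and 4 were lower and 2 higher at an unadjusted p under 0.05. Those with the largest mean changes were TNFRSF10D, a decoy receptor for TRAIL (-0.12, -0.24 and -0.23), KITLG, the ligand of KIT (-0.23, -0.20 and -0.15), SESN2 (0.24, 0.30 and 0.03) and PERP, a desmosomal protein (-0.14, -0.07 and -0.24). SESN2, which is also on the list of ATF4 targets, was the 1 gene here that rose with shRNA1 and with shRNA2. KITLG held 2 junctions with a called splicing index, so its gene value mixes parts that changed unequally.

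Of 19 measured upstream regulators of p53 (22 listed), 1, 0 and 5 fell and 1, 1 and 2 rose, where 4.07%, 8.63% and 14.8% of all genes fell and 5.99%, 5.92% and 12% rose. MDM4, the p53-binding partner of MDM2, rose by 0.31, 0.27 and 0.17 (SE 0.05, adjusted p = 0.00286, 0.00519 and 0.0243), and 1 of its junctions had a called splicing index with shRNA1 and another with shRNA2, so the gene value mixes parts that changed unequally. The next by mean change were SIRT1 (-0.13, -0.10 and -0.27), PPP1R13L (0.13, 0.12 and 0.21) and WRAP53 (-0.12, -0.10 and -0.15).

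Genes that p21, RB and the DREAM complex repress lie at the far end of the pathway. Of 22 measured (24 listed), 3, 4 and 10 fell and 0, 1 and 0 rose, among them CCNB1 (-0.17, -0.20 and -0.20), FOXM1 (-0.16, -0.14 and -0.21), AURKA (-0.13, -0.13 and -0.13) and CDC20 (-0.05, -0.10 and -0.20). The same shares of all genes apply. The RNA of CDKN1A itself was lower or not called in the same cells. The cause of the falls in this list was not tested. FOXM1 also held 3 probe sets whose splicing index was called with shRNA1 and shRNA3, 1 of them with shRNA2 too, so its gene value mixes parts that changed unequally, and AURKA held 1 junction called with shRNA2.

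Targets of ATF4, a factor of the integrated stress response, were counted in the same arrays. Of 13 measured ATF4 targets (14 listed), 10, 13 and 7 rose and 0 fell (also 0 at an unadjusted p under 0.05). Among all genes 5.99%, 5.92% and 12% rose. The rises were led by DDIT4 (0.74, 0.68 and 0.83), DDIT3, which encodes CHOP (0.73, 0.60 and 0.28), ATF3 (0.54, 0.53 and 0.32) and ASNS (0.49, 0.49 and 0.30). DDIT3 and ATF3 each held 3 probe sets with a called splicing index, ASNS 2 and DDIT4 1, so these gene values mix unequal changes. Of the 5 members known to be induced by ATF4 or CHOP as well, GADD45A rose with each hairpin, TNFRSF10B fell with shRNA2 and shRNA3, and BBC3, PMAIP1 and GDF15 passed with none. The part of the stress response in the members' values was not tested.

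The label 293T was checked against marker genes. Probe sets above the signal limit made up between 78.0% and 100% of those of VIM, KRT8, KRT18, NEFM, NEFL and PAX2, traits of 293T cells. For PTPRC, CD3E, ALB, HBB and DCN the share was between 7.14% and 30.8%, and for PECAM1 it was 0 of 3. It was higher for DES (66.7%), GFAP (67.9%) and COL1A1 (86.0%), the last above PAX2 (78.0%). The limit was the 40th percentile, so most probe sets of any gene passed it (547833 of the 573909 exon and 339146 junction ones). These shares therefore do not by themselves establish the cell type. Of the 8 measured markers of other cell types 0 passed limma's test with any hairpin (0, 0 and 1 at an unadjusted p under 0.05). Among all genes 10.1%, 14.5% and 26.8% passed it. With shRNA1, shRNA2 and shRNA3, 0, 1 and 3 of the 6 traits of 293T cells rose, against 5.99%, 5.92% and 12% of all genes.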

How the data were processed

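RNA of 293T cells in 4 groups was measured on 12 exon and junction arrays. The authors deposited log2 values, made with Affymetrix Expression Console and RMA per the submitters' processing notes; for versions, settings or genome build nothing was found (not given in the sources used here). RMA gives all arrays the same distribution, so a shift common to all genes would not be seen. Of 914585 rows (573909 exon, 339146 junction, 1530 controls), a single gene symbol was given to 672085 probe sets and several to 39483. Of 22085 array symbols, 19540 were current, 2474 were updated through RefSeq names (GRCh38.p14) and 71 had no match. Identical copies within a gene (26130) were counted once.

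Probe sets with a mean above the 40th percentile (log2 6.53) were kept. Gene values were means of at least 3 of them, and the splicing index needed 4 (417377 probe sets in 15891 genes). limma 3.58.1 (lmFit, eBayes, two-sided) in R 4.3.3, with data.table (1.17.8), fitted the 4 groups together, with 8 residual degrees of freedom, and p-values were adjusted by Benjamini-Hochberg over all features of a contrast. SE is that of the fit. The number of arrays limits the precision. The steps were tested on simulated data.

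The members and the other lists were chosen with earlier results of these data known. Array values are given for CDKN1A and MDM2 and for the 14 members with the smallest adjusted p; those of FAS, GADD45A, TIGAR, DDB2 and XPC were added after they were seen. Other lists name up to 4 called genes by mean change. Deviations of same-numbered control and shRNA2 arrays correlated over genes (r of 0.202, 0.432 and 0.264), those of no other pair of groups throughout. The numbers may therefore pair control with shRNA2, which the labels do not state, and the main fit did not use this pairing. A block for the replicate number, shared by all 4 groups, gave 19 member calls with shRNA2, as without it. No fit paired control with shRNA2 alone, so whether the calls depend on that pairing was not tested. Alternatives were the filter, the median, exon probe sets only, copies kept, centring, an intensity trend, the replicate block, fewer groups in the fit and each array left out. The gene for p53 itself was not analysed here.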

Additional observations from a re-analysis of the deposited data

Results flagged for a closer look

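Values listed here differed between hairpins by limma's direct test, adjusted over all genes; the size of each is a log2 difference with its SE, 3 arrays in each group. With shRNA2 compared with shRNA1, the differences were -0.29 (SE 0.04) for ZMAT3, -0.36 (SE 0.04) for TP53INP1, -0.34 (SE 0.07) for DDB2, -0.23 (SE 0.04) for BTG2, -0.22 (SE 0.04) for TNFRSF10B, -0.33 (SE 0.04) for SPATA18, -0.36 (SE 0.05) for EDA2R and -0.27 (SE 0.04) for APAF1. In each of these 8 members every shRNA2 array was below every shRNA1 array, but they were picked by this contrast on these same arrays. The lack of overlap therefore adds no support. It was also seen in members not called here, such as CDKN1A and FAS, and its share over all genes was not counted.

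With shRNA3 compared with shRNA1, they were -0.20 (SE 0.05) for MDM2, -0.17 (SE 0.04) for ZMAT3, -0.19 (SE 0.04) for RRM2B and -0.24 (SE 0.04) for TP53INP1. With shRNA3 compared with shRNA2, they were 0.38 (SE 0.07) for DDB2, 0.33 (SE 0.04) for BTG2, 0.30 (SE 0.04) for SPATA18, 0.42 (SE 0.05) for EDA2R and 0.24 (SE 0.04) for APAF1. ZMAT3 and TP53INP1 differed from shRNA1 with both other hairpins. The cause of these differences was not tested.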

How the results depend on the processing

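When each member's change with each hairpin was recomputed under each alternative, 1845 values stayed on the same side of the test, 124 lost it, 34 gained it, 35 without a call moved by over their spread, and 2 reversed: PLK2 with shRNA2 became 0.026 above the 60th percentile, and GADD45A with shRNA2 became -0.022 with the median of probe sets.

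With the median of probe sets, members called were 1, 12 and 7 with shRNA1, shRNA2 and shRNA3, 10 on their mean, 1 with all 3, 5 between shRNA2 and shRNA1 and 0 between shRNA3 and shRNA1. With no filter they were 3 with shRNA1, 2 with all 3 and 2 between shRNA3 and shRNA1, and splicing index calls were 0 with shRNA1 and 0 with shRNA2. Above the 60th percentile 9 members differed between shRNA3 and shRNA2, and 8 did with exon probe sets only; the splicing index count with shRNA1 was 0 above the 60th percentile. With the replicate block, 2 differed between shRNA3 and shRNA1, and splicing calls were 0 with shRNA1 and 2 with shRNA2; member calls with shRNA2 numbered 19. With only the compared groups in the fit, 7 differed between shRNA3 and shRNA1, and splicing calls were 2 with shRNA1 and 0 with shRNA2; the mean of 3 hairpins has no such fit. With no fold minimum, splicing calls were 2, 25 and 11.

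With 1 array left out in turn, member calls ranged from 0 to 10 with shRNA1, 16 to 22 with shRNA2, 10 to 16 with shRNA3, 14 to 22 on the mean, 0 to 7 with all 3, 6 to 9 between shRNA2 and shRNA1, 1 to 6 between shRNA3 and shRNA1 and 5 to 9 between shRNA3 and shRNA2. Splicing calls ranged from 0 to 2, 1 to 5 and 0 to 2. The array held only 3 probe sets for GDF15, all of them kept. The causes of these shifts were not tested.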
